A study of Mus musculus with 2 samples.

Results

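Lymphoid priming is the low-level use of lymphoid genes by multipotent progenitors, and early B genes are those that build the first B lineage cells. The genes described here are Dntt, Rag1, Rag2, Ebf1, Pax5, Cd79a, Cd79b, Igll1, Vpreb1 and Il7r, 10 of the 21360 genes that could be named on the arrays. They were taken by symbol, through the transcript that each probe is assigned to, and every probe of each gene is given, in all 13 probes on 24 spots. The genes were chosen from the signals and detection flags of these same arrays, so their values are a description and support no test. LSK cells (Lineage-, Sca-1+, c-kit+) form the fraction of bone marrow in which stem cells and multipotent progenitors lie. They were sorted by flow cytometry from female C57BL/6J mice according to the sample labels, whereas the study's methods describe male mice. One group was nondiabetic and the other had diabetes induced by streptozotocin (STZ), a toxin of pancreatic beta cells, with no further treatment named in the labels. Each group is 1 array, for which the labels give an n of 3 mice without saying how their RNA was combined. The RNA was amplified from 8.3 ng by the Ovation Pico WTA system and labelled with Cy3, and the age of the mice and the time after STZ are not given in the labels.

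Within the marrow, some multipotent progenitors begin to transcribe Dntt, Rag1 and Il7r before they are committed to the lymphoid lineage. Interleukin 7 acts through Il7r on later progenitors, and the transcription factors E2A, Ebf1 and Pax5 then switch on the genes of the pre-B receptor in order. That receptor pairs an immunoglobulin heavy chain with the surrogate light chain made from Igll1 and Vpreb1, and signals through Cd79a and Cd79b. Rag1 and Rag2 together form the enzyme that cuts antigen receptor genes, and Dntt adds bases at the joins.

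Rag1, Rag2, Igll1, Cd79a and Il7r, 5 of the 10 genes, were higher in diabetic LSK cells by 2-fold or more, and 0 were lower by that much. Dntt, Vpreb1, Pax5 and Cd79b differed by less than 2-fold, and Ebf1 was at background on both arrays. At least 1 probe was well above background for 7 genes in nondiabetic and 9 in diabetic LSK cells, and Rag1 and Igll1 made the difference. By probe these were 8 and 10 of the 13, where 34818 and 35551 of all 55681 probes were well above background. With 1 array per group there is no replicate check of any of these differences, and in bulk RNA fewer cells of a type and less RNA per cell cannot be told apart. Over all 15192 named genes with a ratio or a bound, 11.0% were higher with diabetes by 2-fold or more and 10.1% lower. A bound is given where a probe was well above background on 1 array only. It sets the other array at its lowest probe well above background, or at the probe's own value where that was higher. A bound is thus the least difference under this processing. It leaves out the error of the detected value, and another background correction, described below, gave smaller values for Rag1 and Igll1. Rag1 and Igll1 have bounds and could enter only by being high on the diabetic array, so the count over the genes measured on both arrays stands beside it. Of those 7 genes, Rag2, Cd79a and Il7r (3) were 2-fold or more higher and 0 lower, where the shares among all 13467 named genes with signal on both arrays were 9.44% and 8.44%. The median log2 ratio of these 7 was 0.48, against 0.01 over all such genes. The 2-fold limit lay between Il7r, at a log2 ratio of 1.06, and Vpreb1, at 0.48.

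**Figure D1:**
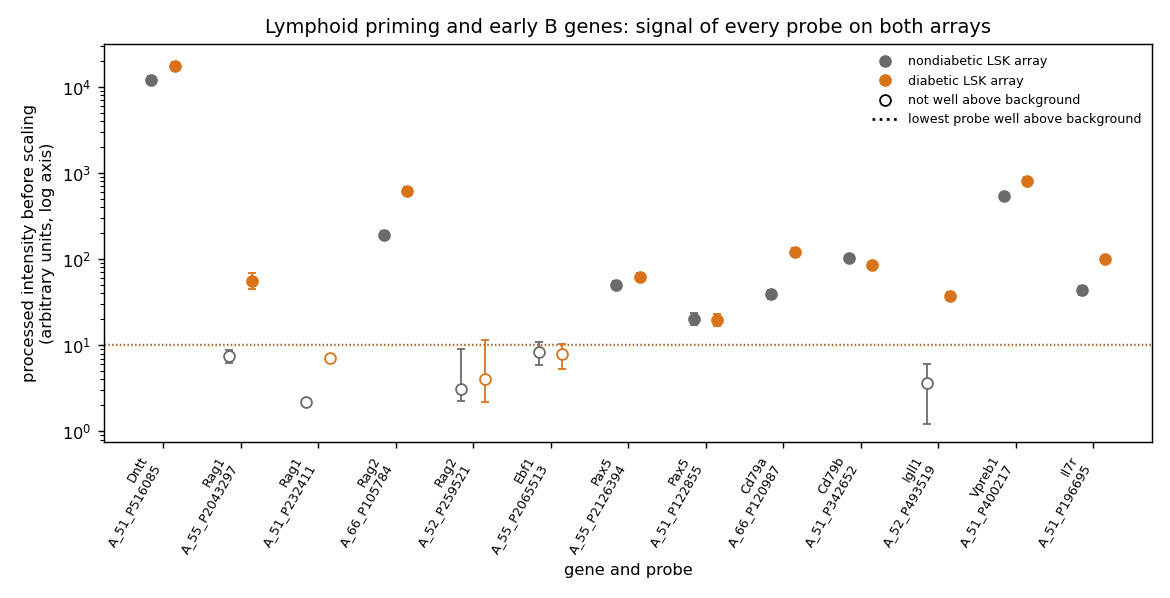
Processed intensity, before scaling and on a log axis, of all 13 probes of the 10 genes on the nondiabetic (grey) and the diabetic (orange) array. Open points were not well above background, dotted lines mark the lowest probe well above background on each array (intensities of 10.2 and 10.1), and error bars show the scanner software's error for probes with 1 spot and the lowest and highest spot for the others. Rag1 and Igll1 went from below the dotted line in nondiabetic to above it in diabetic LSK cells, while Ebf1 and the second probes of Rag1 and Rag2 stayed below it or near it on both arrays.

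Intensities are given as the scanner software reported them, in arbitrary units, and log2 ratios of diabetic over nondiabetic were taken after dividing each array by its 75th percentile (168 in the nondiabetic sample, 182 in the diabetic one). The scanner software marked 62.7% of non-control spots as well above background in the nondiabetic sample and 63.9% in the diabetic one, and 0 as saturated. The arrays shared 1 slide and 1 scan. On probes printed at least 5 times, the log2 ratio varied between spots with a median SD of 0.25 in the dimmest of 3 equal classes of probes by signal, 0.13 in the middle class and 0.07 in the brightest class. For probes printed once, the error given beside a log2 ratio is that of the scanner software's own error model. Both errors describe spots and leave out the differences between mice, sorts and amplifications.

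**Figure D2:**
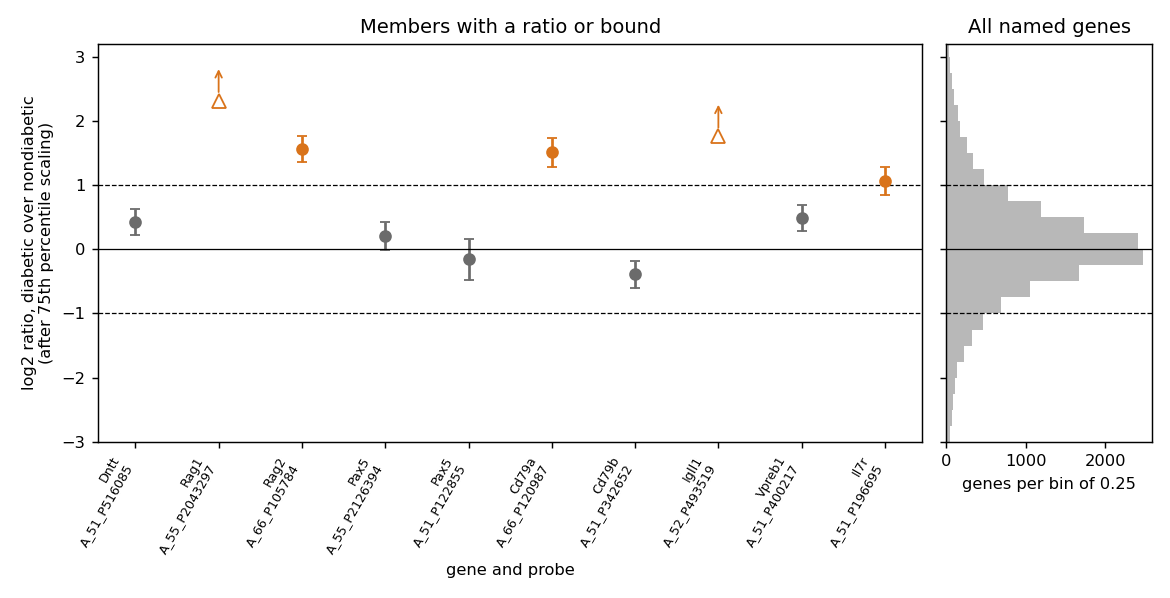
Left, log2 ratio of diabetic over nondiabetic LSK cells for the 10 probes with a ratio (points, with the scanner software's error) or a bound (open triangles with arrows, the least difference), and right, the number of all named genes in bins of the log2 ratio that are 0.25 wide. Dashed lines mark 2-fold in either direction. Rag2, Cd79a and Il7r lie above the upper line as measured ratios and Rag1 and Igll1 as bounds, while the other 5 probes lie between the lines.

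Promoter sequences are shown for Rag1, Rag2, Igll1 and Cd79a, and for Vpreb1, the partner of Igll1. These 5 genes were picked after their values were seen, and the sequence of Il7r, also past 2-fold, is not printed. Each sequence is the 250 bases before the transcription start in RefSeq (assembly GRCm38.p6), printed 5′ to 3′ on the strand of the gene. Of the 10 genes, 9 had an entry in that table, with 10 windows in all. Capitals mark matches on either strand to the letters of 5 motifs of early lymphoid transcription factors, which are CAGGTG (the E-box bound by E2A), CCCNNGGG (EBF1), TGTGGT (RUNX), GAGGAA (PU.1) and TGGGAA (Ikaros), and no base lay in more than 1 match.
Rag1 (chr2:101649533-101649782, - strand): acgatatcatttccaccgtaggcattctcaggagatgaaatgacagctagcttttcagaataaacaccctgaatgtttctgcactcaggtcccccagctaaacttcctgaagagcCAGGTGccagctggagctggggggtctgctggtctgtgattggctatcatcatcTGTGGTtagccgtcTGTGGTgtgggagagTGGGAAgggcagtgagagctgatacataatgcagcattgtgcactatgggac
Rag2 (chr2:101624462-101624711, + strand): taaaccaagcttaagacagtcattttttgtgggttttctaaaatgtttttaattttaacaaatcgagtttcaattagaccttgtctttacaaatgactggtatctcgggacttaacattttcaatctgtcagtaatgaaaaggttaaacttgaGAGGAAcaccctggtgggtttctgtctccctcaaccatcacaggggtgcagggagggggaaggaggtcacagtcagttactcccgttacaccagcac
Cd79a (chr7:24897247-24897496, + strand): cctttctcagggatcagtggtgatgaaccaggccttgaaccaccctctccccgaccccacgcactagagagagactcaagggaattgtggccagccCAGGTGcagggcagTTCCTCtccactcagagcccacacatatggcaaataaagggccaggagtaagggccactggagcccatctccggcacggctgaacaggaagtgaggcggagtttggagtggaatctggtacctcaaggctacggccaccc
Igll1 (chr16:16863986-16864235, - strand): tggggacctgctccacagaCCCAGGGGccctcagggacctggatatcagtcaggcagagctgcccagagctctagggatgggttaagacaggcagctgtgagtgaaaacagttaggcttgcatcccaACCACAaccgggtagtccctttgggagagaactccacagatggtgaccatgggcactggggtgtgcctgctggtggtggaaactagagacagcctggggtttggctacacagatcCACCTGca
Vpreb1 (chr16:16869256-16869505, - strand): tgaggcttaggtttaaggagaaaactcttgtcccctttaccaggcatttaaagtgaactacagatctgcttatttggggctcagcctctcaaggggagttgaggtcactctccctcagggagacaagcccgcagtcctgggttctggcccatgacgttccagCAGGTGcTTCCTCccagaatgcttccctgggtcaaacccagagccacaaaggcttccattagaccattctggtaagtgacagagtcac
The E-box was found in Rag1, Cd79a, Igll1 and Vpreb1, which is 4 of the 10 windows, and in 17.2% of the 32851 promoter windows of the same length in the table. In Rag1 it began 135 bases before the start and in Igll1 8 bases before it. Rag1 also held 2 RUNX matches and 1 Ikaros match, where 14.05% and 21.6% of all windows held one. Igll1 held a RUNX match as well, and Ebf1, at background on both arrays, held matches to RUNX, Ikaros and PU.1. The EBF1 letters were found in Igll1 alone among the 10 windows and in 11.8% of all windows, and those of PU.1 in Rag2, Cd79a and Vpreb1 among the windows shown and in 23.3% of all. The window of Il7r held 0 matches to any of the 5. These are matches of letters, not sites, and the arrays did not measure binding. A link between the matches and the values of the genes was not tested.

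The genes of V(D)J recombination differed in the size of their ratios and in how many of their probes gave a signal. Dntt encodes the terminal transferase that adds untemplated bases at V(D)J joins, and its probe (A_51_P516085) went from an intensity of 12003 in the nondiabetic to 17533 in the diabetic sample. Its log2 ratio was 0.43, with a software error of 0.20. Dntt was thus detected in both groups, and higher with diabetes by 1.35-fold.

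Rag1 encodes the subunit of the recombinase that cuts DNA, and was measured by a pair of probes with 2 spots each. The spots of the brighter probe (A_55_P2043297) had 8.89 and 6.26 in nondiabetic LSK cells, where they were not well above background. On the diabetic array the same spots had 44.4 and 68.3, both well above background. These spots lie on 1 array per group and are not replicates of the condition. Rag1 was higher with diabetes by at least 4.98-fold under this processing, a bound from the mean of its spots and the lowest probe well above background. Between its spots the log2 ratio had an SD of 0.80. The other probe (A_51_P232411) had 2.25 and 2.13 in nondiabetic and 6.81 and 7.53 in diabetic LSK cells. None of these 4 values was well above background, so that probe gives no ratio.

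Rag2 encodes the partner subunit, and its gene lies beside Rag1. The probe that stands for it (A_66_P105784) read 192 without and 616 with diabetes, a log2 ratio of 1.56 with a software error of 0.20. This probe was in the brightest class, in which 3.92% of all probes with signal on both arrays were higher by 2-fold or more. The other Rag2 probe (A_52_P259521) was printed 10 times. Its spots had 2.24 at the lowest, 2.44 at the median and 9.003 at the highest in nondiabetic LSK cells. In diabetic LSK cells the lowest was 2.18, the median 3.28 and the highest 11.49. No spot was well above background and the spots of both arrays overlapped in value, so this probe, assigned to the same transcript as the first, showed no signal on either array. The higher value of Rag2 therefore rests on 1 spot per array, as do those of Igll1, Cd79a and Il7r, whose probes were printed once.

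**Figure D3:**
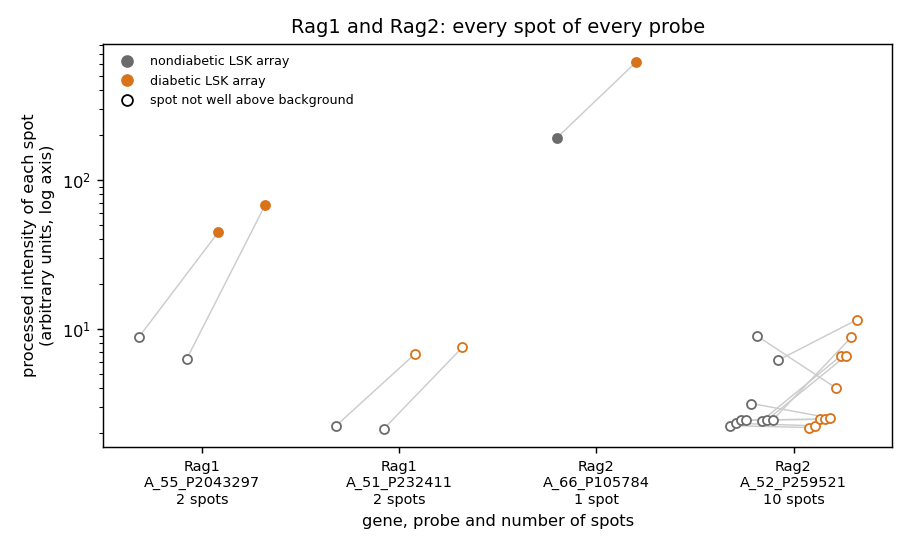
Processed intensity of every spot of the Rag1 and Rag2 probes on a log axis, with the same spot position joined between the nondiabetic (grey) and the diabetic (orange) array and open points for spots not well above background. Both spots of the brighter Rag1 probe and the single spot of A_66_P105784 were higher in diabetic LSK cells, while the 10 spots of the other Rag2 probe lay between 2.18 and 11.49 on both arrays.

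In the surrogate light chain, Igll1 and Vpreb1 were both higher in diabetic LSK cells, Igll1 past 2-fold and Vpreb1 not. Igll1 encodes its lambda5 part. The probe (A_52_P493519) had 3.64 in nondiabetic LSK cells, not well above background, and 37.5 in diabetic LSK cells, well above it, which makes Igll1 at least 3.39-fold higher. Vpreb1 encodes the variable-like part and lies next to Igll1 in the genome. Its probe (A_51_P400217) had 535 in the nondiabetic and 811 in the diabetic sample, and its log2 ratio was 0.48 with a software error of 0.20. Vpreb1 has a near-identical copy, Vpreb2, whose own probe had a log2 ratio of 0.72, with intensities of 30.1 and 53.8. The sequences of these probes are not used here, so whether 1 of them also reads the other gene was not tested.

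The pair that carries the signal of the pre-B and the B cell receptor differed in direction. Cd79a encodes Ig-alpha and its probe (A_66_P120987) read 39.3 without and 121 with diabetes, which is 2.85-fold higher after scaling, a log2 ratio of 1.51 with a software error of 0.22. Cd79b encodes Ig-beta, its partner in the same dimer. Its probe (A_51_P342652) read 101.8 without and 84.5 with diabetes, and its log2 ratio was -0.39 with a software error of 0.21. Both probes lay in the middle class by signal, in which 12.1% of all probes with signal on both arrays were higher and 11.9% lower by 2-fold or more.

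The transcription factors that commit cells to the B lineage were low on both arrays. Ebf1 encodes the factor that opens the early B program, and its only probe (A_55_P2065513) had 8.44 in nondiabetic and 7.81 in diabetic LSK cells, well above background on neither array. Pax5 keeps cells in the B lineage and was measured by a pair of probes that did not share a direction. One probe (A_55_P2126394) went from 49.95 to 62.3, a log2 ratio of 0.20 with a software error of 0.22. The other (A_51_P122855) had 20.3 and 19.7, a log2 ratio of -0.16 with a software error of 0.32. Neither Pax5 value was larger than its error, and both probes were in the dimmest class.

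Il7r encodes the chain of the interleukin 7 receptor that also serves thymic stromal lymphopoietin (Tslp). Its probe (A_51_P196695) went from 43.6 to 98.8 with diabetes, which is 2.09-fold higher after scaling, a log2 ratio of 1.06 with a software error of 0.22. That error spans the 2-fold limit. Of 14 other genes of the pathway, all with a ratio or bound, 0 were higher and 1 was lower by 2-fold or more, with a median log2 ratio of -0.05. The gene past 2-fold was Tslp, a ligand, at -1.41. For comparison, Il2rg, the common gamma chain that pairs with Il7r, had -0.30, and the transcription factors downstream had -0.08 for Stat5a and 0.43 for Stat5b. Il7, the ligand, had only a bound below 2-fold, with 12.2 in the nondiabetic sample and 2.19, not well above background, in the diabetic one, so its difference may be larger.

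Around these 10 genes, 95 further genes of lymphoid development in 5 lists were read by their brightest probe. Of the 86 with a ratio or bound, 6 were higher and 16 lower with diabetes by 2-fold or more, where 11.0% and 10.1% of all named genes were. Their median log2 ratio was 0.01, against 0.02 over all named genes with a ratio or bound.

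Among regulators of the lymphoid and B lineage, 3 of 25 were higher and 5 lower by 2-fold or more. The higher ones were Bach2, a repressor active in B cells, at 1.52, Tcf12, an E protein, at 1.07, and Zfp521, at 1.07. Only Zfp521 had a second probe in the same direction, while those of Bach2 and Tcf12 had -0.40 and -0.30. The lower ones were Irf4, at least 7.06-fold, Spib, at least 3.36-fold, Pou2af1, a coactivator in B cells, at -2.14, Irf8 at -1.49 and Foxo1 at -1.04, and the second probe of Foxo1 had 0.41. Under the other background correction described below, Irf4, Spib, Foxo1, Tcf12 and Zfp521 were not past 2-fold. Tcf3, which encodes E2A and is named here after its values were seen, had -0.82 and -1.04 on its 2 probes. Flt3, a receptor of lymphoid-primed progenitors, had 0.19 and -0.03.

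Among genes of the pre-B and B cell receptor and the B cell surface, 2 of 17 were higher and 2 lower past 2-fold. Cd38 had 1.71 and Bank1, a B cell scaffold protein, was at least 2.56-fold higher. Lyn, a kinase of the receptor, had -1.92, and Blnk, the linker below it, was at least 2.08-fold lower.

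In the repair of RAG breaks, 1 of 12 genes was higher and 3 were lower past 2-fold. Dclre1c, which encodes the Artemis nuclease that opens hairpin ends, had 2.46, 2.17, 1.75 and 0.82 on its 4 probes. Their nondiabetic intensities were 16.7, 12.6, 10.4 and 13.0, near that array's lowest probe well above background (10.2). Prkdc, the kinase that activates Artemis, had -2.44 on 9 spots with an SD of 0.18 between them. Its intensities were 68.3 without and 13.6 with diabetes, and the probes of both genes were in the dimmest class. Lig4, the ligase of the joins, had -2.35 and Xrcc5, which encodes Ku80, had -1.15. The 4 genes thus did not share a direction.

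Of 18 T and innate lymphoid genes, 0 were higher and 5 lower by 2-fold or more. The latter were Il2rb at -3.76, Gata3 at -1.30, Il1rl1 at -1.11, and Cd3g and Cd3d, which were at least 2.74-fold lower each.

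**Figure D4:**
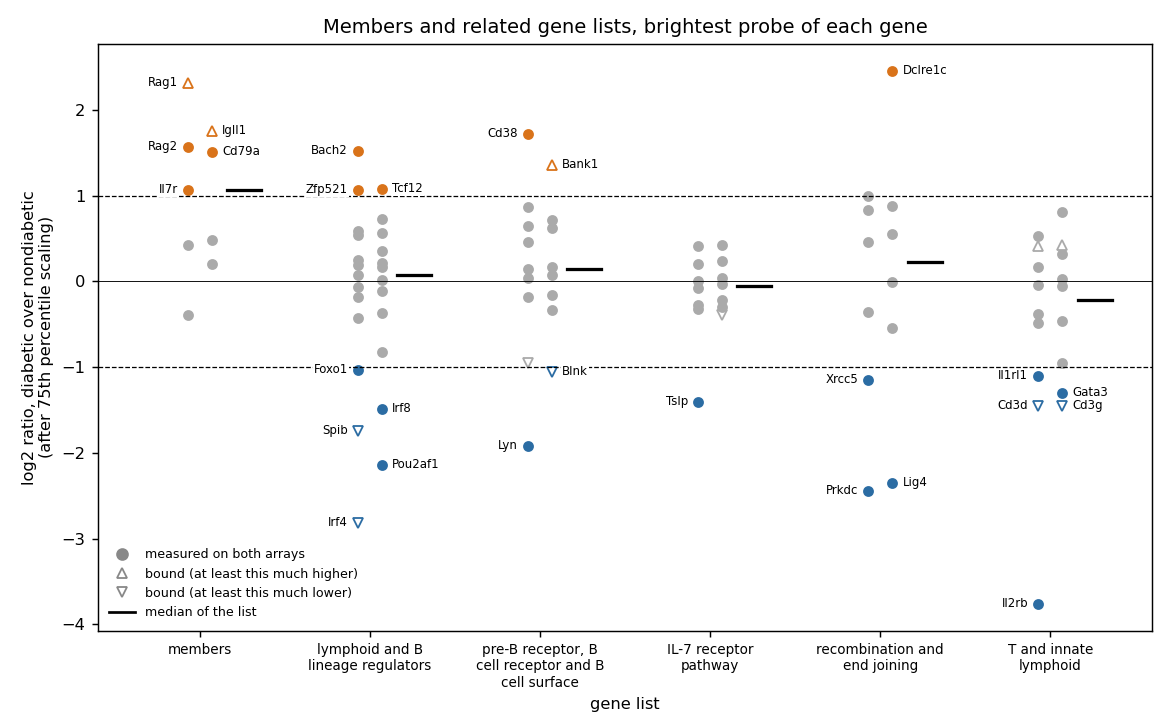
Log2 ratio of diabetic over nondiabetic LSK cells for the brightest probe of each of the 10 genes and of the genes in 5 related lists, with points for values measured on both arrays, triangles for bounds, dashed lines at 2-fold and a black bar for the median of each list. The genes described here have 5 values above the upper line and 0 below the lower one, while the related lists have 6 above and 16 below.

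The labelled cell type was checked against marker genes. Of 10 genes of the LSK gate and of stem and progenitor cells, 9 were well above background in nondiabetic and 10 in diabetic LSK cells, with Kit at 4635 and 4735 and Ly6a, which encodes Sca-1, at 475 and 701. In this list 1 gene was higher and 1 lower by 2-fold or more, and the median log2 ratio was 0.25. Slamf1 was at least 2.59-fold higher, and Mecom had -1.20 on its brighter probe and -0.16 on the other. Markers of other cell types were read beside the 10 genes. Of 5 B cell markers 4 were well above background on each array, with a summed intensity of 5685 without and 6080 with diabetes, and Ms4a1 (CD20) was at background at 3.87 and 2.52. Of 5 plasmacytoid dendritic cell markers 4 were well above background on each array, with summed intensities of 5297 and 5479, and Klk1 was at background. Most of these sums came from the brighter probe of Siglech (4984 and 5046). The other Siglech probe had 6.02, not well above background, and 18.9. The erythroid markers summed to 3135 and 6829, a difference carried by the globin genes Hba-a1 (1984 and 4967) and Hbb-bt (923 and 1681), while Gata1, Klf1 and Epor had log2 ratios of -0.59, -0.30 and -0.20 and the list a median of -0.20. Those of T and NK cells summed to 3601 and 2816, with a median log2 ratio of -0.47. Most of these sums came from the brighter probe of Nkg7 (3291 and 2582.5), which also set the median. The other Nkg7 probe went the other way, with 103 and 204, and Klrb1c had a higher bound below 2-fold. In that list 0 genes were higher and 2 lower by 2-fold or more. Granulocyte and monocyte markers summed to 42737 and 41745, most of it from the brightest probe of Itgam (34686 and 35189). The other Itgam probes had 284 and 142, and 111 and 49.2. Markers of stroma and endothelium summed to 1037 and 1813, of which Pecam1 had 162 and 936 and the brighter probe of Kdr 844 and 848. The other Kdr probe, printed 10 times, was at background at 3.00 and 2.61. This list had a median of -0.11 on the log2 scale, with Col1a1 and Cdh5 at background. The part of such cells in the values of the 10 genes was not tested.

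For Dntt and Vpreb1 the log2 ratio stayed between 0.43 and 0.47 and between 0.43 and 0.50 under all settings run. For Rag2 it stayed between 1.36 and 1.58. Under background correction by normexp, which adds an offset of 50 to each intensity, the ratio of Cd79a was 0.77, that of Il7r 0.57, that of Rag1 0.68 and that of Igll1 0.49, so that Rag2 was the 1 gene left past 2-fold. The direction of these 5 genes was the same under each setting that gave them a ratio or bound, which leaving out bounds did not for Rag1 and Igll1.

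**Figure D5:**
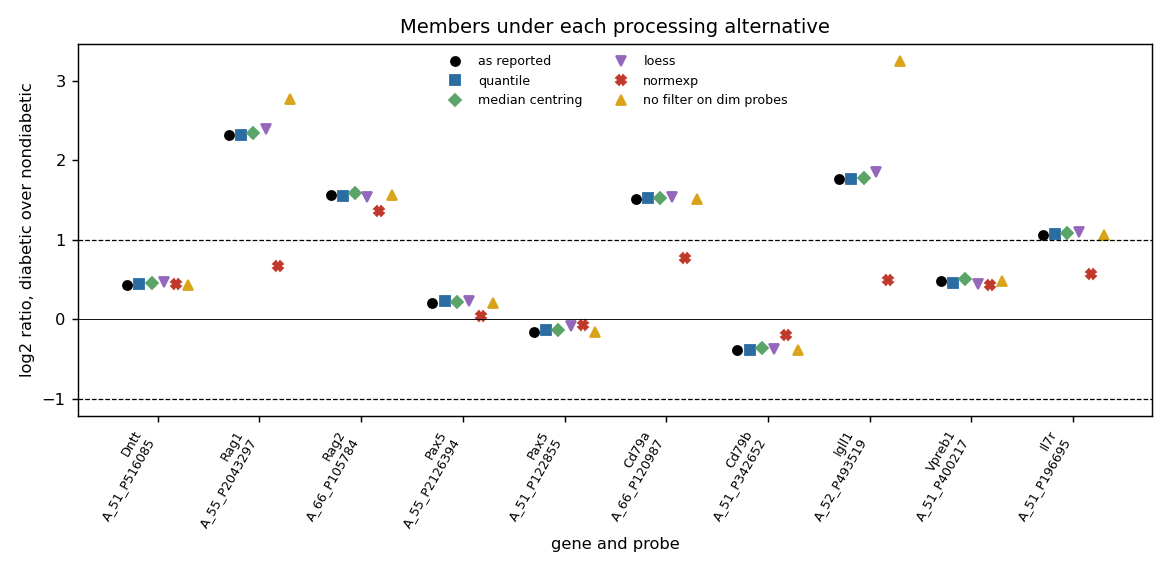
Log2 ratio of diabetic over nondiabetic LSK cells for each probe with a ratio or bound, as reported (black) and under 5 processing alternatives, with dashed lines at 2-fold. Quantile normalization, median centring and loess kept every probe near its reported value, whereas normexp (red crosses) brought Cd79a, Il7r, Rag1 and Igll1 below 2-fold and the setting without a filter on dim probes raised Rag1 and Igll1 to 2.77 and 3.25.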

How the data were processed

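LSK cell RNA of each condition was hybridised to 1 Agilent mouse array of 1 colour. The deposited intensities are scanner values from Feature Extraction 11.5.1.1, in which the authors' software had subtracted background but not adjusted the arrays to each other, and a separate table by the authors multiplies them by 1 constant per array. The design of the array refers to mm9, and none of its coordinates were used. Each of the 59305 non-control spots was divided by the 75th percentile of its array and taken to log2. Spots that the software marked as outliers (192 and 147) were left out, and spots of a probe were averaged. Detection is the software's flag, by majority of spots. Transcript identifiers were matched to a RefSeq table of GRCm38.p6 (53.7% of spots), and a gene was represented by its brightest probe on average, with every probe of the 10 genes shown. The members, the gene lists and the motifs were chosen with earlier results of these data known. Named genes are the 10 members, the genes of the 5 lists past 2-fold and the markers, some of which are not reported here. Vpreb2, Il7, Il2rg, Stat5a, Stat5b and Tcf3, also from the lists, were named after their values were seen. No test was possible with 1 array per group, so the number of arrays limits the precision.

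The steps were tested on a simulated pair of arrays of 55681 probes. Both simulated arrays were made from the nondiabetic array, and the probes to move were drawn from those well above background on it. The added noise was the same at every signal and smaller than the spread between spots of the dimmest class. Among 200 probes moved by 2 on the log2 scale, 100% of those raised and 88% of those lowered passed 2-fold, as did 0 of 35782 unmoved probes. Differences between mice, sorts and amplifications were not simulated, so this checks the steps and gives no rate of false calls. The work used Python 3.11.15, numpy 2.4.6, pandas 2.3.3, R 4.3.3 and limma 3.58.1. The alternatives were normexp on the median spot intensity with an offset of 50, quantile normalization, loess, median centring of the log2 ratios, dropping the filter on dim probes, leaving out bounds, averaging a gene's probes and the authors' table.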

Additional observations from a re-analysis of the deposited data

How the results depend on the processing

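Quantile normalization, median centring and loess left the count of the 10 genes at least 2-fold higher at 5 and kept the same 5 genes. The authors' table, averaging a gene's probes and dropping the filter on dim probes gave the same, but could not have lowered that count. That table differs by 1 constant per array, which the scaling removes. Only Pax5 had ratios on more than 1 probe to average, and without the filter a bound becomes a ratio at least as large. Without the bounds of Rag1 and Igll1 the count was 3, and under normexp it was 1. Normexp also took the genes of the related lists at least 2-fold higher from 6 to 1 and lower from 16 to 4, and all named genes from 1667 to 597 higher and from 1538 to 497 lower. Its offset draws the ratios of dim probes towards 0. No value of a gene past 2-fold changed direction under the alternatives that gave it a value. Of the 22 genes of the related lists past 2-fold, 19 were so with the mean over a gene's probes (Bach2, Tcf12 and Foxo1 were not) and 21 under loess (Blnk was not). Without bounds 16 were so (Irf4, Spib, Blnk, Bank1, Cd3d and Cd3g were not). Under normexp 5 were so, namely Bach2, Pou2af1, Irf8, Lig4 and Il2rb. Signal over background limits Ebf1 and the second probes of Rag1 and Rag2, which have no ratio, and holds Rag1 and Igll1 to bounds. No replicate could be left out. No paired analysis was possible because each group has only 1 array, and no value here comes from a test.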

Other observations

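Probes of 1 gene often differed among the genes of lymphoid development. Of the 94 genes of the 5 lists on the arrays, 29 had ratios or bounds on more than 1 probe, which had opposite signs in 13 of the 29 and differed by more than 2-fold in 12. Cd247, which encodes the zeta chain of the T cell receptor, had a log2 ratio of 0.02 on its brighter probe, while its other probe (A_52_P173555) went from 2.21, not well above background, to 99.6 with diabetes, at least 8.99-fold higher. Those probes are assigned to different transcripts of the gene. Cr2, a complement receptor of B cells, had -0.16 on its brighter probe and 1.53 on the other. Atm, a kinase that responds to DNA breaks, had -0.55 and -2.26. These genes were named after their values were seen. Among the 10 genes described here, 3 had a pair of probes, and in Rag1 and Rag2 the second probe gave no ratio.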
